A study of Homo sapiens with 10 samples.

Results

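The receptor tyrosine kinases of glioblastoma described here are 10 genes: EGFR, ERBB2 and ERBB3 of the EGF receptor family, PDGFRA, PDGFRB and KIT of the platelet-derived growth factor receptor family, and MET, FGFR1, IGF1R and AXL. They were picked by gene name from a table of 34567 genes, by a rule that sets no threshold on a measured value. A filter on low counts left 17312 genes for testing, among them 9 of the 10 receptors, and KIT was too low to be tested. Gene-level RNA sequencing was done in 2 human glioblastoma cell lines, both grown in DMEM with fetal bovine serum. SNB19 cells received a scramble siRNA (NC, n = 3 libraries) or an siRNA against MEOX2 (siMEOX2, n = 3), each with Lipofectamine 3000. U87 cells received lentivirus carrying an empty vector (EV, n = 2) or MEOX2 (OE, n = 2), each with polybrene, and the methods describe the overexpressing cells as a stable line. The treatment field of 3 of the 4 U87 libraries reads MEOX3, MEOX4 or MEOX5 where the titles read MEOX2, and the groups were taken from the titles. Nothing in the labels says that the libraries of a group came from separate cultures, so the p-values measure the spread between these libraries, which may be technical. In RNA from a whole culture, fewer cells that express a gene and less of its RNA per cell cannot be told apart.

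Receptor tyrosine kinases span the cell membrane, bind growth factors outside the cell and phosphorylate themselves and their partners inside it. The phosphorylated tails recruit adaptors that feed the RAS to ERK relay and the PI3K to AKT relay, while ubiquitin ligases and phosphatases end the signal and sorting proteins send the receptors to the lysosome. In glioblastoma EGFR, PDGFRA and MET are known for gene amplification, and AXL and MET are known from invasive and mesenchymal tumour cells. MEOX2 is a homeobox transcription factor, and the study asked which transcripts follow its loss in SNB19 and its gain in U87.

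MEOX2 itself followed the labels. It had 249, 224 and 275 reads in the NC libraries and 54, 40 and 49 reads in the siMEOX2 libraries, a 5.38-fold lower mean level after knockdown (log2 change -2.42, SE 0.15, edgeR quasi-likelihood adjusted p = 0.000119). No read was counted in either EV library, against 4999 and 5308 reads in the OE libraries, so that the OE level was at least 1430-fold above a floor of 3 counts in each EV library. The NC level in SNB19 was at least 53.8-fold above that floor, so the lines differed in MEOX2 before any treatment against it.

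Depth was 12533775 to 16560324 counted reads a library, which put the floor of 3 counts at 0.173 to 0.267 CPM (counts scaled to library size). U87 EV replicate 1 stood apart from the other 9 libraries. Its log2 CPM correlated with those of EV replicate 2 at a Pearson r of 0.944 across genes, against 0.989 to 0.992 in the 7 other replicate pairs, and ribosomal protein genes took 12.9% of its reads against 3.99% to 6.64% elsewhere. Its ratio to EV replicate 2 fell with gene length, from a median log2 ratio of 0.60 in the shortest of 5 length classes of tested genes to -0.64 in the longest. The receptors are long genes, with exons that sum to between 5154 bases (AXL) and 13941 bases (IGF1R), and 58.8% to 96.6% of tested genes were shorter. EGFR was 1.47 lower, IGF1R 1.11 lower, MET 0.84 lower and PDGFRB 0.78 lower on the log2 scale in EV replicate 1 than in EV replicate 2, whereas the low genes ERBB3 and PDGFRA differed by 0.05 and 0.10. Which of the 2 EV libraries stands for the U87 control cannot be read from the counts. Values without replicate 1, and in places without replicate 2, are therefore given for the receptors and for genes whose value depends on the library. Each of these fits leaves 1 EV library, which is assumed to vary like the other groups. In contrasts with EV their p-values rest on that assumption. The part of RNA quality or library preparation in this difference was not tested.

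Lineage markers were checked first, because the labels call both lines glioma cells. Of 9 astrocyte and glioma markers, 8 had at least 10 reads in every SNB19 library and 7 in every U87 library, S100B being at or near 0 in both lines and SOX2 at 0 to 3 reads in U87. The 12 measured markers of epithelial, blood, endothelial and nerve cells summed to 7.04 to 7.45 normalised FPKM in NC, 3.14 to 3.6 in siMEOX2, 5.06 to 5.11 in EV and 1.37 to 1.50 in OE. PTPRC and HBB never passed 4 reads. The endothelial marker PECAM1 had 437 to 553 reads in NC and 65 to 104 in siMEOX2, and 85 and 75 reads in EV and 27 and 16 in OE. Other markers of that list went the opposite way with knockdown, the epithelial marker CDH1 from 12 to 24 reads to 63 to 67 and the nerve cell marker SYP from 21 to 34 reads to 80 to 83. The lineage markers summed to 351 to 357 in NC and 146 to 159 in siMEOX2, and to 1140 and 404 in EV and 211 to 212 in OE. VIM and CHI3L1 made up most of these sums in SNB19, and OLIG2 went the other way, with 53 to 65 reads in NC, 72 to 97 in siMEOX2, 66 and 87 in EV and 273 and 291 in OE. The part of either marker list in the receptor results was not tested.

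The promoters of EGFR, MET, AXL and PDGFRB are shown because these receptors gave the highest levels or the largest changes below. Each run spans the 250 bases before and the 50 bases after a transcription start, from RefSeq on GRCh38.p14, read 5′ to 3′ on the strand of the gene, and for EGFR and AXL it is the first of the 2 windows listed. Capitals mark the GC box letters GGGCGG and the homeobox core letters TAAT on either strand, so that CCGCCC and ATTA are also in capitals.
EGFR, chr7:55018767-55019066, plus strand: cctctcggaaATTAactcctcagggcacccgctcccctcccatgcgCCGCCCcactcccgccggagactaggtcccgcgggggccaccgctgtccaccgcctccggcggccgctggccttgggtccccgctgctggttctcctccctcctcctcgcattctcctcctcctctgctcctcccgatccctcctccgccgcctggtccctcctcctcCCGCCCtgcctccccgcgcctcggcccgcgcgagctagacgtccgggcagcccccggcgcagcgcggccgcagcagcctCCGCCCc
MET, chr7:116671946-116672245, plus strand: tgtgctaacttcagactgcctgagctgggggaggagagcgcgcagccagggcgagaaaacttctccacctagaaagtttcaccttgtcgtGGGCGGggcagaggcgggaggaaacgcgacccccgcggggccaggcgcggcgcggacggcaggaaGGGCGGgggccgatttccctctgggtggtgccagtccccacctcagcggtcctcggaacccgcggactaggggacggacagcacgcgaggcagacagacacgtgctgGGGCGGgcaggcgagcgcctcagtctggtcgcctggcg
AXL, chr19:41218973-41219272, plus strand: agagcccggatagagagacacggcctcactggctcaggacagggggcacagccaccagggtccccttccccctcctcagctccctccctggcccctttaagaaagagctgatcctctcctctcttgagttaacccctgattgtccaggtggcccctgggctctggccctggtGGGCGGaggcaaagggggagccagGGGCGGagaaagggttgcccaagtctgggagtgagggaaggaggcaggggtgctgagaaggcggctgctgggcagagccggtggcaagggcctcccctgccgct
PDGFRB, chr5:150155796-150156095, minus strand: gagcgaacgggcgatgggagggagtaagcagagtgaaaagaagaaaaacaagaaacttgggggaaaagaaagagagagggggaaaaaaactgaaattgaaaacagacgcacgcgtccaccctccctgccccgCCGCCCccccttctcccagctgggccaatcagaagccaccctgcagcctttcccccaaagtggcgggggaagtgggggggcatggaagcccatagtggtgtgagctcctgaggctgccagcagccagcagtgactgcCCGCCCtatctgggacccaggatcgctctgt
The windows of EGFR and MET hold 3 GC boxes each and those of AXL and PDGFRB hold 2 each, and 45.0% of all 35116 promoter windows hold at least 1. The longer homeobox sequence TAATTA, whose letters contain TAAT on both strands, stands in 4.84% of all windows and in none of these 4. Only the EGFR window of the 4 holds the TAAT core, once, and 50.2% of all windows do. GC content was 75.3% for EGFR, 69.3% for MET, 66.0% for AXL and 59.3% for PDGFRB, against a median of 58.7% over all windows.

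Levels were compared between genes as normalised FPKM, which is FPKM (reads scaled to the length of the gene's summed exons and to library size) with library sizes scaled by TMM, the trimmed mean of M-values. In control SNB19 cells AXL was the highest receptor at 78.3 ± 2.96 (SD, n = 3), followed by MET at 20.1 ± 0.480, FGFR1 at 15.8 ± 0.502 and EGFR at 12.8 ± 0.545. PDGFRB at 5.40 ± 0.225 and ERBB2 at 4.97 ± 0.332 overlapped in range across libraries. Within each NC library PDGFRB was the higher, at 5.17, 5.61 and 5.41 against 4.64, 5.30 and 4.97. IGF1R lay at 4.12 ± 0.175, ERBB3 at 0.999 ± 0.132 and PDGFRA at 0.132 ± 0.0265. In control U87 cells AXL was again first at 66.0 ± 12.2 (SD, n = 2), then MET at 35.0 ± 14.1 and FGFR1 at 18.2 ± 6.51. EGFR at 7.91 ± 5.25 overlapped in range with PDGFRB at 4.08 ± 1.53. Within each EV library EGFR was the higher, at 4.2 and 11.6 against 3.00 and 5.16. Below them came IGF1R at 1.43 ± 0.750, ERBB2 at 0.641 ± 0.149, PDGFRA at 0.0881 ± 0.00501 and ERBB3 at 0.0676 ± 0.00202. AXL, MET and FGFR1 thus held the first 3 places in both lines, and the wide SDs of the EV group reflect the gap between its 2 libraries. AXL, the receptor of GAS6, took 54.2% to 55.3% of the summed level of all 10 receptors in each of the 6 SNB19 libraries, 54.7% and 46.0% in the EV libraries, and 39.2% and 40.3% in the OE libraries.

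KIT, the receptor of stem cell factor, was at the limit of detection. It had 4, 0 and 0 reads in NC, 3, 0 and 0 in siMEOX2, 1 and 1 in EV, and 0 and 3 in OE. No library passed 4 reads, so a KIT difference was not detectable at this depth. PDGFRA, a receptor known for amplification in glioblastoma, had 17 to 33 reads in SNB19 and 10 to 12 in U87, and changes of a low gene like this one were estimated with wide intervals. Intervals here cover counting error and the spread between libraries as edgeR models them.

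**Figure D1:**
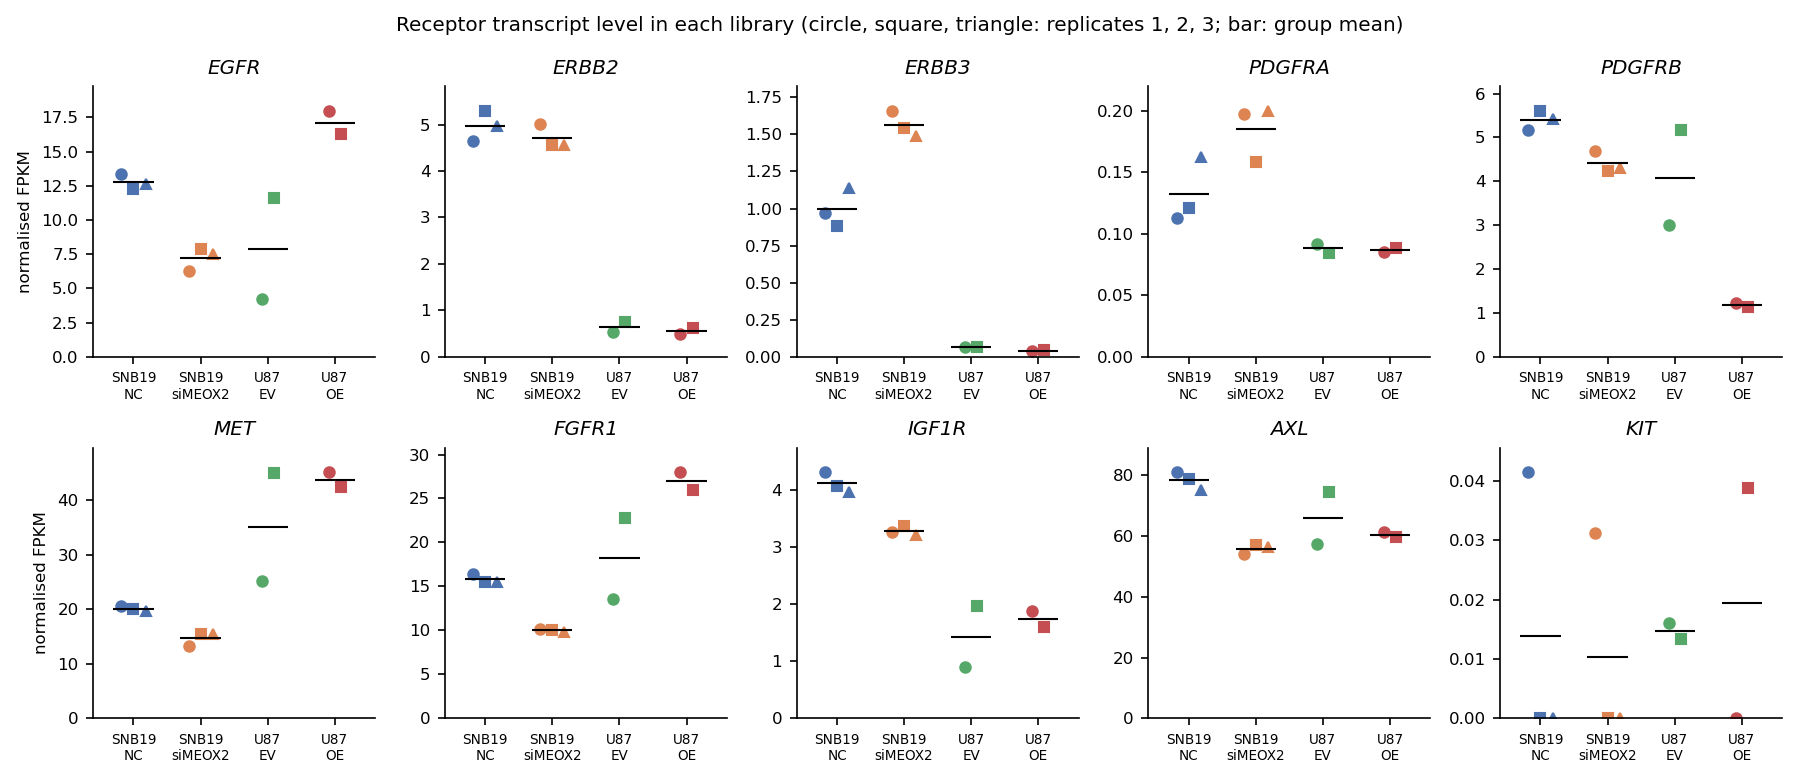
Each panel gives 1 receptor, with its level in normalised FPKM on a linear y axis from 0 and the 4 groups on the x axis, where points are libraries (circle, square and triangle for replicates 1, 2 and 3) and bars are group means. In the EGFR panel the OE libraries sit at 18 and 16.3, the EV libraries at 4.2 and 11.6, and the siMEOX2 libraries at 6.28 to 7.90, below all NC libraries. The y axes differ between panels, and the highest library lies at 0.0415 for KIT and at 81 for AXL.

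The first comparison asked how the control lines differed, as NC in SNB19 minus EV in U87. The line and the way of treatment (siRNA or lentivirus) went together in these libraries and cannot be told apart. ERBB2, ERBB3 and IGF1R were higher in SNB19 and MET was lower, 4 of 9 receptors tested (44.4%), while 56.4% of all genes tested were called in this comparison. The share among the receptors is therefore no higher than the background. Over the 9 receptors the median log2 difference was 0.58, against 0.03 over all genes. That median depends on EV replicate 1. Without it EGFR, PDGFRB and AXL went from 0.69, 0.40 and 0.25 to 0.13, 0.06 and 0.06. ERBB2, IGF1R, MET and FGFR1 also moved down, and only PDGFRA (0.63) and ERBB3 (3.89) did not.

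ERBB3, a kinase-impaired receptor that signals by pairing with ERBB2, had the largest difference. Its level was 0.972, 0.882 and 1.14 normalised FPKM in the NC libraries and 0.0690 and 0.0662 in the EV libraries, where only 7 and 8 reads were counted. The groups did not overlap, and the log2 difference was 3.87 (SE 0.24, adjusted p = 2.12e-06, edgeR). ERBB2, which has no ligand of its own and is the preferred partner of the family, was 4.64, 5.30 and 4.97 in NC against 0.536 and 0.746 in EV. All NC libraries lay above both EV libraries, with a log2 difference of 2.95 (SE 0.19, adjusted p = 2.81e-06). IGF1R, the receptor of the insulin-like growth factors, was 4.31, 4.06 and 3.97 in NC and 0.902 and 1.96 in EV, 1.52 higher on the log2 scale (SE 0.28, adjusted p = 0.00154). The IGF1R difference was 1.06 without EV replicate 1 and 2.16 without EV replicate 2, and it was called in both. The differences of ERBB2 and ERBB3 were 2.73 and 3.89 without EV replicate 1.

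MET, the receptor of hepatocyte growth factor, went the other way. It was 20.6, 20 and 19.7 in NC and 25.1 and 45.0 in EV, so that the groups did not overlap, with a log2 difference of -0.80 (SE 0.21, adjusted p = 0.0112, edgeR). The call was lost when libraries were scaled by their totals alone (-0.51, adjusted p = 0.186). It was also lost with edgeR on the 2 groups alone (-0.80, adjusted p = 0.0739). The MET difference was -1.17 without EV replicate 1 and -0.35 without EV replicate 2. EGFR was 13.4, 12.3 and 12.6 in NC and 4.2 and 11.6 in EV, a log2 difference of 0.69 (adjusted p = 0.113). The EGFR difference was 0.13 without EV replicate 1 and 1.58 without EV replicate 2. FGFR1 took opposite signs in the same way, -0.53 without EV replicate 1 and 0.19 without replicate 2. The EV library left out thus set the size of the EGFR difference and the sign of the FGFR1 difference, while MET was lower either way. PDGFRA (0.58), PDGFRB (0.40) and AXL (0.25) did not pass the test, with adjusted p from 0.125 to 0.175. Without EV replicate 1, 5 receptors were called, FGFR1 being the addition, and 63.5% of all genes. Without EV replicate 2, 8 receptors were called, and 73.7% of all genes. On the 2 groups alone 3 receptors were called against 39.8% of genes, with an offset for gene length 6 against 60.4%, and at an unadjusted p under 0.05 with a log2 difference over 1 in size 3 against 42.2%.

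The second comparison asked what knockdown of MEOX2 did to the receptors of SNB19. FGFR1 and AXL fell and ERBB3 rose, 3 of 9 receptors (33.3%), against 15.1% of all genes tested, in the edgeR quasi-likelihood test over all 10 libraries. The U87 libraries take no part in this contrast, but they enter the shared estimate of the spread, and the gap between the EV libraries widened it: the common biological coefficient of variation was 0.216 with both and 0.0576 without EV replicate 1. Fitted on the 6 SNB19 libraries alone, 7 of 9 receptors were called, 6 lower and 1 higher, and the background was then 56.0% of 15525 genes. Without EV replicate 1 the count was also 7 of 9, against 47.2% of genes, and it was 7 without EV replicate 2, against 47.4%. With both EV libraries kept, leaving out any 1 of the other 8 libraries lowered the count to 0 or 1, against 6.23% to 10.9% of genes. An offset for gene length gave 5 against 20% of genes, and an unadjusted p under 0.05 with a log2 change over 1 in size gave 0 against 10.6%. The median log2 change of the receptors was -0.33, against 0.00 over all genes.

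EGFR had the largest change in size among the receptors. Its level was 13.4, 12.3 and 12.6 normalised FPKM in NC and 6.28, 7.90 and 7.55 in siMEOX2, so that every siMEOX2 library lay below every NC library. The log2 change was -0.82 (SE 0.30, 95% interval -1.50 to -0.14), and it did not pass the test over all 10 libraries (edgeR adjusted p = 0.104). On the SNB19 libraries alone it was -0.81 (SE 0.069, adjusted p = 3.52e-09). The size was nearly the same in both fits and the spread assumed for it was not.

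FGFR1, a receptor of the fibroblast growth factors, was 16.4, 15.5 and 15.5 in NC and 10.2, 10.1 and 9.76 in siMEOX2. The groups stood apart, and FGFR1 fell by 0.66 on the log2 scale (SE 0.18, adjusted p = 0.0366, edgeR; SNB19 alone adjusted p = 4.88e-10). AXL was 81.0, 78.8 and 75.1 in NC and 54.0, 56.9 and 56.5 in siMEOX2, again without overlap. It fell by 0.49 (SE 0.13, adjusted p = 0.0349; SNB19 alone adjusted p = 4.14e-08). The summed level of the 10 receptors was 139 to 147 in the NC libraries and 98.5 to 104 in the siMEOX2 libraries, and the share of AXL in that sum was 54.2% to 55.3% throughout.

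MET was 20.6, 20 and 19.7 in NC and 13.2, 15.4 and 15.4 in siMEOX2. Its groups did not overlap, and its log2 change of -0.45 (SE 0.20) did not pass over 10 libraries (adjusted p = 0.157, edgeR) and passed on SNB19 alone (adjusted p = 3.71e-06). IGF1R was 4.31, 4.06 and 3.97 in NC and 3.26, 3.36 and 3.21 in siMEOX2, a change of -0.33 (SE 0.23) that did not pass over 10 libraries and passed on SNB19 alone (adjusted p = 0.000309). PDGFRB, which marks pericytes and mesenchymal cells in normal tissue, was 5.17, 5.61 and 5.41 in NC and 4.69, 4.24 and 4.31 in siMEOX2, a change of -0.29 (SE 0.18) that did not pass over 10 libraries and passed on SNB19 alone (adjusted p = 0.00345). Both also passed without EV replicate 1 and without EV replicate 2. These changes were smaller than that of EGFR, and in all of them the groups stood apart.

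ERBB3 moved in the opposite direction. It was 0.972, 0.882 and 1.14 in NC and 1.66, 1.54 and 1.49 in siMEOX2, where 215 to 259 reads were counted. The siMEOX2 libraries all lay above the NC libraries, and ERBB3 rose by 0.65 on the log2 scale (SE 0.15, adjusted p = 0.0210, edgeR; SNB19 alone adjusted p = 7.78e-05). Its partner ERBB2 was 4.64, 5.30 and 4.97 in NC and 5.02, 4.57 and 4.57 in siMEOX2. The ERBB2 groups overlapped, with a log2 change of -0.07 and a 95% interval of -0.40 to 0.25. PDGFRA had a change of 0.48 (95% interval -0.08 to 1.04), its groups overlapped, and it passed neither fit.

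The third comparison asked what MEOX2 overexpression did to the receptors of U87. PDGFRB was lower with MEOX2 and was the only receptor of 9 called (11.1%), against 25.3% of all genes tested. Every sign below is OE minus EV, and the same EV libraries serve here and in the comparison of the lines. The median log2 change of the receptors was -0.01, against -0.02 over all genes.

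PDGFRB was 3.00 and 5.16 normalised FPKM in EV and 1.23 and 1.13 in OE. Both OE libraries lay below both EV libraries, and PDGFRB fell by 1.79 on the log2 scale (SE 0.24, 95% interval -2.33 to -1.26, adjusted p = 0.00118, edgeR). The change was -2.09 without EV replicate 1 and -1.31 without EV replicate 2. It was called under 19 of 20 other settings, the exception being a fit on the 4 U87 libraries alone (adjusted p = 0.188). That fit called 0 of 14180 genes with edgeR, 2503 of them having an unadjusted p under 0.05, whereas DESeq2 on all 10 libraries called 5879 of 17312.

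EGFR was 4.2 and 11.6 in EV and 18 and 16.3 in OE. Both OE libraries were higher than both EV libraries, but the EV libraries themselves were far apart, and the log2 change of 1.11 (SE 0.37, 95% interval 0.27 to 1.95) missed the threshold (adjusted p = 0.0554, edgeR). It was 0.60 without EV replicate 1 and 2.06 without EV replicate 2, so that its size rested on the EV library used. With an offset for gene length it was 0.92 (adjusted p = 0.0104). FGFR1 was 13.6 and 22.8 in EV and 28.0 and 26.0 in OE, without overlap, and its change was 0.57 (SE 0.22, adjusted p = 0.0793). Without EV replicate 1 the FGFR1 change was 0.29.

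The other receptors did not pass the test with all libraries. MET was 25.1 and 45.0 in EV and 45.1 and 42.4 in OE. The MET groups overlapped, and the change of 0.32 became 0.00 (SE 0.089) without EV replicate 1 and 0.83 without replicate 2. IGF1R was 0.902 and 1.96 in EV and 1.88 and 1.59 in OE, also overlapping. Its change of 0.27 was -0.14 without EV replicate 1 and 0.97 without EV replicate 2. AXL was 57.4 and 74.6 in EV and 61.2 and 59.6 in OE, a change of -0.13 (95% interval -0.49 to 0.23). That change was -0.26 without EV replicate 1 and 0.11 without EV replicate 2. ERBB2 (-0.21), ERBB3 (-0.65) and PDGFRA (-0.01) stood on 103 reads or fewer in each U87 library, and their intervals all held 0. Without EV replicate 1, 4 receptors were called (EGFR and FGFR1 higher, PDGFRB and AXL lower) against 38.9% of all genes. The length offset gave 2 receptors against 30.4% of genes, and an unadjusted p under 0.05 with a log2 change over 1 in size gave 2 against 22.9%.

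**Figure D2:**
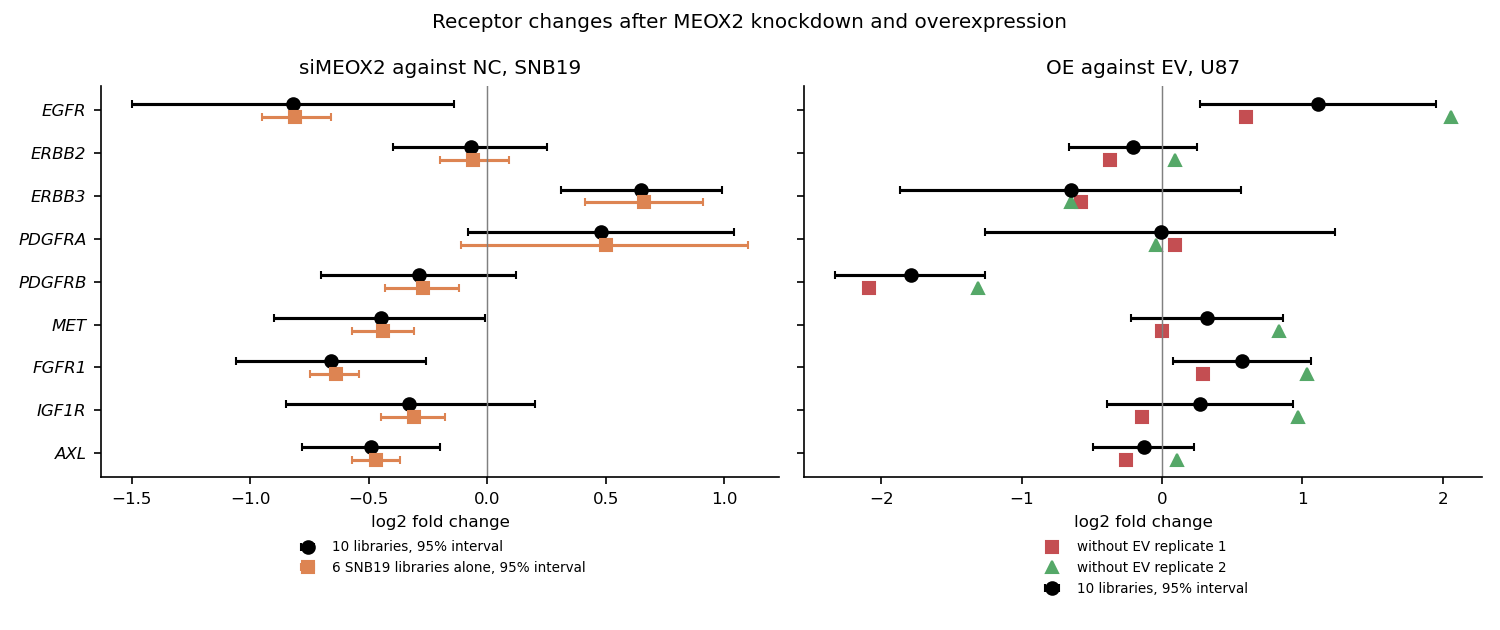
The x axes give the log2 fold change of each tested receptor, siMEOX2 minus NC in SNB19 on the left and OE minus EV in U87 on the right. Black points with 95% intervals come from the fit on 10 libraries, orange points with 95% intervals from the 6 SNB19 libraries alone, and red squares and green triangles from the fits without EV replicate 1 and without EV replicate 2. On the left the orange intervals of EGFR (-0.81), FGFR1 (-0.64) and AXL (-0.47) lie below 0, and on the right PDGFRB stays below 0 in all 3 fits while MET moves from 0.00 to 0.83.

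The 2 changes of each receptor were then compared, as the overexpression change in U87 minus the knockdown change in SNB19. These contrasts share no library, although they differ in cell line as well as in the direction of the MEOX2 change. EGFR, PDGFRB and FGFR1 passed this test, 3 of 9 receptors (33.3%), against 15.1% of all genes. EGFR had a change of -0.82 with knockdown and 1.11 with overexpression, a difference of 1.93 (SE 0.48, adjusted p = 0.0287, edgeR). For FGFR1 the values were -0.66 and 0.57, a difference of 1.23 (SE 0.28, adjusted p = 0.0211). PDGFRB was lower in both, by far more with overexpression, and its difference was -1.50 (SE 0.30, adjusted p = 0.0125). Without EV replicate 1 the differences were 1.42 for EGFR, 0.94 for FGFR1 and -1.80 for PDGFRB, and 4 receptors were called against 35.6% of genes. With the length offset 4 were called against 19.3%. With OE replicate 1 or OE replicate 2 left out 0 were called, against 5.09% and 4.74% of genes, and without any 1 SNB19 library 1 was called, against 7.11% to 7.96%. The remaining receptors did not pass, with values between -1.30 (ERBB3) and 0.77 (MET), and AXL had a difference of 0.36 (95% interval -0.10 to 0.82).

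Ligands of the receptors were followed as a list of 22 genes, of which 21 were found by name and 18 were tested. After knockdown 2 were higher and 4 lower (33.3% of those tested, against 15.1% of all genes), and after overexpression 3 were higher and 4 lower (38.9% against 25.3%). The list median was -0.35 after knockdown and -0.12 after overexpression, against 0.00 and -0.02 over all genes. The list was put together with results of these data known. IGF2 was not analysed here, and AREG, EPGN and IGF1 were too low to be tested.

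Of the ligands of EGFR, TGFA rose with knockdown, from 2.64 to 3.16 normalised FPKM in NC to 4.08 to 4.73 in siMEOX2 (log2 change 0.57, SE 0.14, adjusted p = 0.0289, edgeR). HBEGF had a knockdown change of -0.45 (adjusted p = 0.0508), BTC of -0.40 and EGF of 0.18, and none of them passed over 10 libraries. On the SNB19 libraries alone HBEGF passed (-0.43, edgeR adjusted p = 1.95e-05), and BTC and EGF did not. EREG, the gene of epiregulin, was the highest ligand of U87 and rose further with MEOX2, from 58.7 and 90.6 in EV to 354 and 326 in OE (log2 change 2.19, SE 0.37, adjusted p = 0.00376). In SNB19 it had 0 to 2 reads in NC and 4 to 14 in siMEOX2. EREG was thus a U87 transcript, with 3764 and 6931 reads in EV. NRG1, a neuregulin that binds ERBB3, rose with overexpression from 6.93 and 12.8 to 37.9 and 35.0 (log2 change 1.88, SE 0.25, adjusted p = 0.00112). NRG2, the other neuregulin of the list, fell by 1.55 with overexpression (SE 0.23, adjusted p = 0.00194). The knockdown change of NRG2 passed on the SNB19 libraries alone (-0.48, edgeR adjusted p = 0.00053) and not over 10 libraries. The overexpression changes of EREG, NRG1 and NRG2 were 1.95, 1.55 and -1.29 without EV replicate 1.

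Of the platelet-derived growth factors, which bind PDGFRA and PDGFRB, PDGFA and PDGFC fell in both experiments. PDGFA was 3.27, 3.14 and 2.94 in NC and 1.80, 1.57 and 1.66 in siMEOX2, and 7.28 and 6.12 in EV and 2.42 and 2.08 in OE. It fell by 0.89 with knockdown (SE 0.14, adjusted p = 0.00371, edgeR) and by 1.58 with overexpression (SE 0.17, adjusted p = 0.000412), without overlap in either line, and its overexpression change was -1.41 without EV replicate 1. PDGFC fell by 0.46 and by 0.61 (adjusted p = 0.0355 and 0.0192). PDGFB was a transcript of SNB19 alone in these data, with 426 to 544 reads in NC and 0 in all 4 U87 libraries, at least 110-fold above the floor of 3 counts in each EV library. It fell by 1.19 with knockdown (SE 0.14, adjusted p = 0.00226). PDGFD, also at 0 in U87, had a knockdown change of -0.10 and did not pass.

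FGF2, a ligand of FGFR1, rose in both experiments. It was 2.23, 2.06 and 2.34 in NC and 4.18, 5.26 and 5.04 in siMEOX2 (log2 change 1.13, SE 0.24, adjusted p = 0.0151, edgeR), and 16.0 and 32.8 in EV and 119 and 115 in OE (2.26, SE 0.30, adjusted p = 0.00111, and 1.88 without EV replicate 1). FGF1 fell by 0.98 with overexpression (adjusted p = 0.0402), and by less, -0.43, without EV replicate 1. The knockdown change of FGF1 passed on the SNB19 libraries alone (-0.51, edgeR adjusted p = 0.009) and not over 10 libraries. FGF5 passed in neither experiment. KITLG, the ligand of KIT, fell by 1.19 with knockdown (SE 0.28, adjusted p = 0.0205), in cells where KIT itself had at most 4 reads. Its overexpression change was 0.34 (adjusted p = 0.474), -0.14 without EV replicate 1 and 1.19 without EV replicate 2. HGF, the ligand of MET, had 0 to 4 reads in SNB19 and 145 to 360 in U87, and its overexpression change of -0.70 did not pass (adjusted p = 0.266), and it was -1.07 without EV replicate 1 (adjusted p = 0.000144) and -0.09 without EV replicate 2. GAS6, the ligand of AXL, was 12.9 to 13.6 in NC and 0.486 and 1.22 in EV, 3.98 higher in SNB19 on the log2 scale (SE 0.33, adjusted p = 1.20e-05), or 4.76 higher without EV replicate 1. GAS6 had changes of -0.44 with knockdown and -0.87 with overexpression, and PROS1, a related ligand, of 0.27 and -0.35. None of these passed over 10 libraries. On the SNB19 libraries alone both knockdown changes passed, GAS6 at -0.43 and PROS1 at 0.28 (edgeR adjusted p = 3.39e-06 and 0.00396). The overexpression change of GAS6 was -0.03 without EV replicate 1 and -1.36 without EV replicate 2 (adjusted p = 3.52e-06), and that of PROS1 was -0.53 (adjusted p = 0.000834) and -0.06.

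Receptor tyrosine kinases outside the 10 made a list of 48, of which 34 were tested. After knockdown 3 rose and 5 fell (23.5%, against 15.1% of all genes), after overexpression 3 rose and 4 fell (20.6% against 25.3%), and between the control lines 19 were higher in SNB19 and 4 in U87 (67.6% against 56.4%). CSF1R, the receptor of colony-stimulating factor and a relative of KIT and PDGFRB, fell in both experiments. It had 297, 287 and 316 reads in NC and 107, 72 and 104 in siMEOX2, and 201 and 234 in EV and 31 and 42 in OE. Its log2 changes were -1.71 (SE 0.17, adjusted p = 0.000647, edgeR) and -2.66 (SE 0.23, adjusted p = 0.000143), and they were -1.70 and -2.59 without EV replicate 1. The ephrin receptors EPHB3 and EPHB2 fell with knockdown, by 1.36 and 1.13 (adjusted p = 0.0116 and 0.000384), and EPHB4 fell with overexpression by 0.61 (adjusted p = 0.0152), or by 0.53 without EV replicate 1. PTK7, a pseudokinase of Wnt signalling, fell by 0.58 with knockdown and by 1.03 with overexpression, where it had 34 reads or fewer a library. The PTK7 overexpression change was -1.29 without EV replicate 1, and the call was lost without EV replicate 2 (-0.56, adjusted p = 0.291). Between the lines, ROR2 had 509 to 578 reads in NC and 0 in EV, at least 116-fold above the floor, FGFR4 had 497 to 629 against 0 and 1, and EPHB3 and PTK7 were 5.86 and 5.81 higher on the log2 scale, or 7.69 and 5.50 higher without EV replicate 1.

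Adaptors and the RAS, ERK and PI3K relay made a list of 36 genes, 35 of them tested. After knockdown only PIK3R3 of the list was called over 10 libraries (2.86%, against 15.1% of all genes). PIK3R3, a regulatory subunit of PI3K, fell by 0.69 (SE 0.13, adjusted p = 0.00785, edgeR). Fitted on the SNB19 libraries alone, 56.0% of all genes were called, and more of the list passed, in both directions. Among these were SHC1 (-0.59, edgeR adjusted p = 5.28e-10) and PTPN11 (0.50, adjusted p = 9.32e-08). After overexpression 3 rose and 4 fell (20% against 25.3%). PIK3R3 fell there too, by 1.57 (SE 0.17, adjusted p = 0.000419), from 2.19 and 2.87 in EV to 0.928 and 0.777 in OE, and by 1.71 without EV replicate 1. IRS2, the docking protein of the insulin and IGF1 receptors, was 1.02 and 4.02 in EV and 24.6 and 24.0 in OE, and rose by 3.26 (SE 0.50, adjusted p = 0.00230), or by 2.63 without EV replicate 1. HRAS fell by 1.90 (adjusted p = 0.0318), but by 0.35 without EV replicate 1, where it stood at 177 against 37.7 in replicate 2. Between the lines 9 were higher in SNB19 and 5 in U87 (40.0% against 56.4%), with HRAS (-2.79) and MAP2K2 (-1.94) lower and PIK3R3 (1.71) higher in SNB19. These differences were -1.29, -0.88 and 1.52 without EV replicate 1. MAP2K2, an ERK pathway kinase, also stood highest in EV replicate 1, at 225 against 70.4 in EV replicate 2.

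Brakes on receptor signalling and the sorting machinery made a list of 27, with 26 tested. After knockdown ERRFI1 and RAB5A rose and none fell in the fit on 10 libraries (7.69% against 15.1% of all genes). On the SNB19 libraries alone, where 56.0% of all genes were called, others passed in both directions. There SOCS3 rose by 0.89 (edgeR adjusted p = 3.45e-08) and LRIG1 fell by 0.61 (adjusted p = 8.54e-08). ERRFI1, an inhibitor of EGFR, was 102, 98.5 and 99.4 in NC and 162, 191 and 191 in siMEOX2 (log2 change 0.86, SE 0.18, adjusted p = 0.0131, edgeR). After overexpression 8 rose and 2 fell (38.5% against 25.3%), with a list median of 0.59 against -0.02 over all genes. Both EV libraries enter that count and that median. Without EV replicate 1 LRIG1 stood at 0.04, SOCS3 at 0.06 and ADAM17 at -0.04, while STAM (1.02) and RAB7A (0.89) remained well above 0. CBLB, a ubiquitin ligase of activated receptors, rose by 1.82, NEDD4, another ubiquitin ligase, by 1.49, and HGS, which sorts ubiquitinated receptors on endosomes, by 1.25 (adjusted p = 0.00441, 0.0347 and 0.0289). All of them stood lower in EV replicate 1 than in replicate 2, and without replicate 1 their changes were 1.38, 0.90 and 0.76. Between the lines 3 were higher in SNB19 and 6 in U87 (34.6% against 56.4%), among them INPP4B (1.61) and RAB5A (-1.14).

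**Figure D3:**
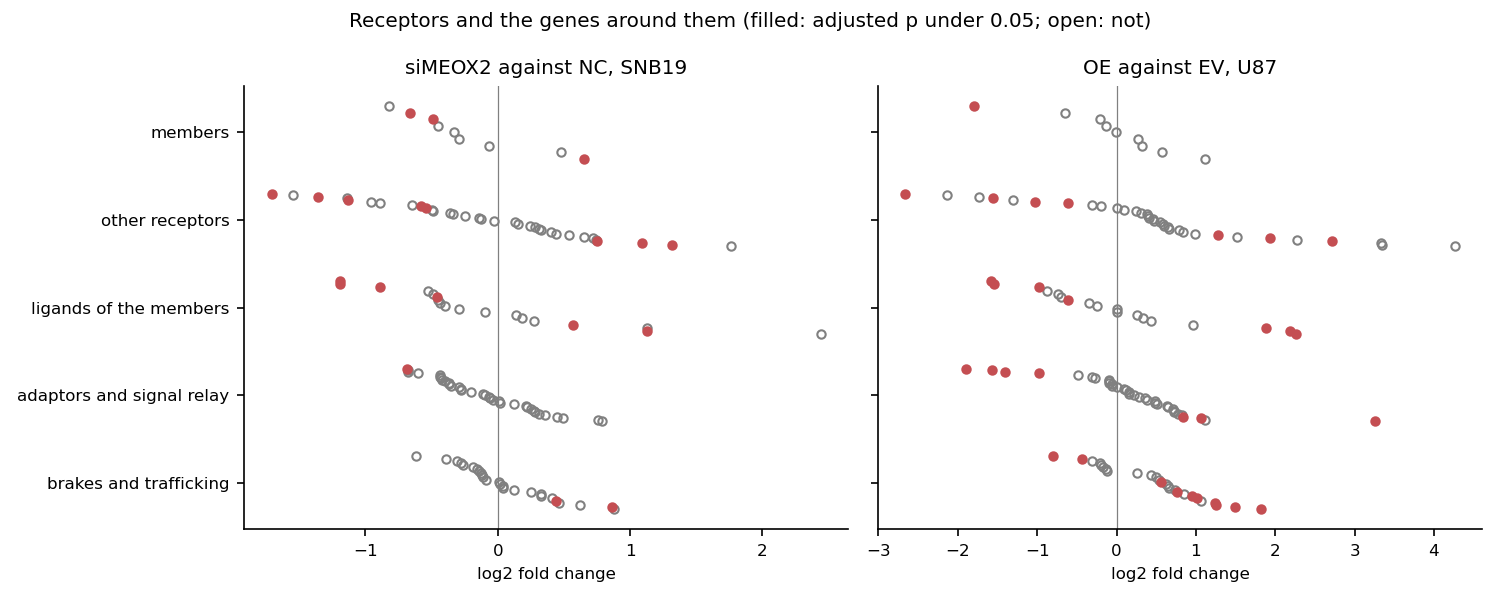
The x axes give log2 fold changes, siMEOX2 minus NC in SNB19 on the left and OE minus EV in U87 on the right, with 1 circle for each tested gene of the receptors (members) and of the 4 lists around them. Filled circles passed an adjusted p of 0.05 in the fit on 10 libraries and open circles did not. Height within a row only separates the points. On the left the relay row holds 1 filled circle, PIK3R3 at -0.69, and on the right the row of brakes and trafficking holds 8 filled circles above 0 and 2 below.

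Gene models bear on a few of these counts. On GRCh38 with GENCODE 29, whose summed exon lengths match those implied by the deposited values for all 10 receptors, EGFR lies at chr7:55019021-55211628, MET at chr7:116672390-116798386 and AXL at chr19:41219203-41261766. PDGFRB lies at chr5:150113837-150155872, ERBB2 at chr17:39687914-39730426 and ERBB3 at chr12:56076799-56103505. IGF1R lies at chr15:98648539-98964530, and PDGFRA and KIT at chr4:54229097-54298247 and chr4:54657918-54740715. Counts are over all exons, untranslated ones included. Exons of MIEN1 and PGAP3 overlap those of ERBB2 on the opposite strand, as do exons of EGFR-AS1 with EGFR, of LETM2 with FGFR1 and of AC011510.1 with AXL. On the same strand, exons of AC034102.2 overlap those of ERBB3 and exons of AC058822.1 those of PDGFRA. A further gene, AC087623.1, overlaps FGFR1 on the opposite strand. The library kit did not mark strand, so reads of such partners cannot be told apart there. PDGFRB, MET, IGF1R and KIT share no exon with another gene.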

How the data were processed

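RNA from 10 libraries in 4 groups was measured by poly-A RNA sequencing. The authors deposited raw read counts for each gene and FPKM values for each gene and library. Per the submitters' processing notes in the labels, HISAT2, HTSeq 0.11.2 and DESeq2 1.26.0 were used with GRCh38, and the annotation release is not given in the sources used here. The deposited FPKM equal counts divided by 1 fixed length a gene and by the library total. Counts were tested with edgeR 4.0.16 in R 4.3.3: TMM factors, filterByExpr, a robust quasi-likelihood fit of the 4 groups on all 10 libraries, and Benjamini-Hochberg adjustment over 17312 genes, with calls at an adjusted p under 0.05. Standard errors were taken from the p-value of the test. DESeq2 1.42.0, limma 3.58.1 on log2(FPKM + 1), other scalings, no filter, the groups of 1 contrast alone, a replicate block, each library left out, and an unadjusted p under 0.05 with an absolute log2 change over 1 were the alternatives. The length offset (loess, span 0.5) and the crossed block were added after the data were seen. Totals were 12533775 to 16560324 reads. The receptors and the gene lists were chosen with earlier results of these data known. From each list, called genes with the largest changes and a mean of at least 1 FPKM were named, at most 4 other receptors and 3 of each further list in a comparison, besides all ligands and MEOX2. Scripts were tested on simulated data. Promoters came from RefSeq (GRCh38.p14), which gave no entry for ERBB3, and the promoter of FGFR1 and the values of some listed genes are not reported here.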

Additional observations from a re-analysis of the deposited data

Results flagged for a closer look

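For 3 receptors the test of the difference between experiments passed, as the log2 change with MEOX2 overexpression in U87 minus the log2 change with MEOX2 knockdown in SNB19. The differences were 1.93 for EGFR, -1.50 for PDGFRB and 1.23 for FGFR1, with edgeR adjusted p of 0.0287, 0.0125 and 0.0211. The estimates of EGFR (-0.82 with knockdown, 1.11 with overexpression) and FGFR1 (-0.66 and 0.57) had the sign of the MEOX2 change in both lines. Those of PDGFRB (-0.29 and -1.79) were below 0 in both. Cell line and the direction of the MEOX2 change cannot be told apart in these differences. None of the 4 groups held enough libraries for a check on single outlying libraries.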

How the results depend on the processing

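Limits first. The gap between the EV libraries set much of the spread, U87 had 2 libraries a group, and receptors under about 100 reads (ERBB3 and ERBB2 in U87, PDGFRA, KIT) could not show small changes. With a library left out of U87, the lone sample of its group is assumed to vary like the other groups. Counts below are of the 9 receptors, then of all genes. Of the receptor values under the alternatives, 557 kept their side of the threshold, 44 crossed it upward and 63 lost it. Another 1 reversed, FGFR1 between the lines, at 0.19 without EV replicate 2 (-0.53 without EV replicate 1). A change of sign was counted as reversed only where the main fit or the alternative called the value. The 557 thus include uncalled values that changed sign, such as PDGFRA with overexpression, which ranged from -0.24 to 0.21. Results called in the main fit held to differing degrees at an adjusted p under 0.05. Between the lines ERBB2, ERBB3 and IGF1R held in 18 of 18 alternatives and MET in 15. For knockdown ERBB3 held in 12 of 19, FGFR1 in 8 and AXL in 7. For overexpression PDGFRB held in 19 of 20. For the difference PDGFRB held in 12 of 17, and EGFR and FGFR1 in 7 each.

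Between the lines (4 and 9769 called), the 2 groups alone called 6425 genes, and leaving out 1 library gave 4 to 8 receptors and 8100 to 13545 genes, 8 receptors without EV replicate 2. For knockdown (3 and 2622), library size only, no filter on low counts and limma each called 1 receptor, the length offset 5, the 2 groups alone 7 and 8687 genes, and the unadjusted rule 0, although 5 receptors had an unadjusted p under 0.05 and DESeq2 called 3. Leaving out 1 library gave 0 to 7 receptors and 1065 to 8701 genes: 7 receptors with EV replicate 1 or 2 left out, and 0 or 1 with any other. For overexpression (1 and 4375), no filter, limma, the unadjusted rule and the length offset each called 2 receptors and DESeq2 3. The 4 U87 libraries alone called 0 receptors and 0 genes by edgeR, with 1 and 2503 at an unadjusted p under 0.05. Leaving out 1 library gave 1 to 5 receptors and 1467 to 10932 genes, with 4 and 5 receptors without EV replicates 1 and 2. For the difference between the changes (3 and 2615), library size only called 0 receptors, with 4 at an unadjusted p under 0.05, DESeq2 called 3 receptors and 4039 genes, and leaving out 1 library gave 0 to 6 receptors and 870 to 10038 genes, 0 with OE replicate 1 or 2 left out. Apart from the left-out libraries and smaller fits, the causes were not tested.

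Scaling by library totals alone moved the median log2 value of all genes from 0.03 to 0.37 between the lines and from -0.02 to 0.14 for overexpression. Calls higher and lower were then 5946 and 3255 between the lines (4824 and 4945 with TMM), 1247 and 932 for knockdown (1167 and 1455), and 1927 and 1684 for overexpression (1882 and 2493). With limma they were 6423 and 3057, 2019 and 1357, and 2569 and 1610, and 1804 and 1562 for the difference (1221 and 1394).

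Same-numbered SNB19 libraries did not deviate together, with correlations of deviations of 0.0435, 0.00256 and 0.0588. In U87 the correlation was -0.162 for same numbers and 0.162 for crossed numbers. With 2 libraries a group these values mirror each other by construction, so they cannot decide the pairing. The title of U87 OE replicate 1 also carries both numbers. The numbers were not taken as pairs. With a replicate block, edgeR called 0 receptors (4 at an unadjusted p under 0.05) and 861 genes for knockdown, 1 and 1908 for overexpression, and 0 (5 at an unadjusted p under 0.05) and 530 for the difference. With the U87 numbers crossed, overexpression gave 2 receptors and 3467 genes.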
